A study of Mus musculus with 6 samples.

Results

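The fibroblast growth factor (FGF) signalling genes of the mouse embryo were read as 37 genes: 22 Fgf genes, 5 receptors and 10 feedback genes of the ERK pathway. The Fgf genes are ligands except for 4 FGF homologous factors, which stay inside the cell. They were chosen by gene symbol as every numbered Fgf gene, Fgfr1 to Fgfr4, Fgfrl1, the Sprouty genes Spry1 to Spry4, the Spred genes Spred1 to Spred3, Dusp6, Etv4 and Etv5, from the 18194 genes that have a probe set with 1 symbol. Each gene was represented by its brightest probe set, the one with the highest mean over all arrays. The 37 genes had 84 probe sets.

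RNA was hybridised to 6 Affymetrix mouse arrays, 2 for each of 3 groups of ICR strain samples. All came from embryos aged 8.5 dpc with 3 to 4 somites, at a stage before circulation starts. The first group was Flk1-positive cells, that is, cells carrying the VEGF receptor that is encoded by Kdr and marks endothelial cells and their precursors. The series' design text names Flk1+/GFP embryos, and none of the sources used here gives the way in which cells were selected. The other groups were the embryo proper of wild-type (WT) embryos and of embryos lacking Flk1 (Flk1 KO). The KO label names no allele, and an embryo group mixes all cell types of the embryo proper, Flk1-positive cells included in WT. Values are linear probe-set signals, scaled so that each array had a trimmed mean of 500. Differences are in log2(signal + 21.61), which understates the change of dim genes. Nothing in the labels tells whether arrays of 1 group came from separate litters or pools, so p-values here reflect the spread of these samples alone, and it may be technical.

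FGF ligands are secreted proteins that bind receptor tyrosine kinases of the Fgfr family together with heparan sulphate on the cell surface. The activated receptor signals through adaptor proteins to RAS and the kinase cascade that ends in ERK. ERK signalling raises transcription of its own brakes and effectors: Sprouty and Spred proteins dampen the cascade, DUSP6 removes phosphate from ERK, and ETV4 and ETV5 are ETS transcription factors that carry the response to the nucleus. In the early embryo FGF ligands are made by local signalling centres such as the tail bud and the boundary of midbrain and hindbrain. VEGF receptors, including the one encoded by Kdr, also activate ERK.

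The labels were checked on Kdr and on marker lists. Kdr read 3309 and 3328 on the Flk1-positive arrays, 544 and 546 on the WT arrays, and 29.5 and 63.8 on the KO arrays. Its level in Flk1-positive cells was 2.56 ± 0.25 log2 above that in WT (SE, adjusted p = 0.00192). In KO it was at least 7.17-fold lower than in WT (adjusted p = 0.0459). All 15 endothelial markers rose in Flk1-positive cells against WT, and 8 of the 15 fell in KO against WT. Markers of blood were also high in the Flk1-positive cells: all 7 measured primitive erythroid genes rose, with a summed signal of 43518 and 45156 against 624 and 1172 in WT. Arrays of a group correlated at 0.980 to 0.985 over the tested probe sets. The 3-prime over 5-prime ratio of the transferrin receptor control, a measure of RNA and labelling quality, was 1.33 and 1.44 log2 in Flk1-positive cells and 0.97 to 1.09 on the other 4 arrays; its part in the results was not tested. That of the beta-actin control went the other way, at 0.26 and 0.29 against 0.47 to 0.58.

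The starts of the feedback genes are shown first, since these genes are the usual readout of ERK signalling and they did not move together here. RefSeq promoter windows (GRCm38.p6, the 250 bases before the start site) were found for 27 of the 37 genes. They were searched on both strands for CGGAA, a form of the ETS core GGAA, for the AP-1 site TGANTCA and for the CArG box. ETS factors such as ETV4 and ETV5 bind that core, and its other forms were not counted. Below, ETS core means CGGAA alone. The motifs were chosen with the results known. In the windows below, written 5′ to 3′ on the strand of the gene, capitals mark every CGGAA (or TTCCG where it lies on the other strand).
Dusp6 (chr10:99262981-99263230, + strand): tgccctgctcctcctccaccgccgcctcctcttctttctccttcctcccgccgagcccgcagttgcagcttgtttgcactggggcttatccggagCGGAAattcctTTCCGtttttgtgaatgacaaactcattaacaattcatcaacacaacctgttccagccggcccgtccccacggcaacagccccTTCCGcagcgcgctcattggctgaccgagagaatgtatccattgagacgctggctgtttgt
Spred1 (chr2:117120821-117121070, + strand): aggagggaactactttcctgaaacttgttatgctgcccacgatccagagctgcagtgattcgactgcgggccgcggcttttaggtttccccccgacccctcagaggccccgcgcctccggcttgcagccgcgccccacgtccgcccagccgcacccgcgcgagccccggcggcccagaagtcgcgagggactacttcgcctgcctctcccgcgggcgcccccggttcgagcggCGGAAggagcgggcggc
Spry1 (chr3:37639697-37639946, + strand): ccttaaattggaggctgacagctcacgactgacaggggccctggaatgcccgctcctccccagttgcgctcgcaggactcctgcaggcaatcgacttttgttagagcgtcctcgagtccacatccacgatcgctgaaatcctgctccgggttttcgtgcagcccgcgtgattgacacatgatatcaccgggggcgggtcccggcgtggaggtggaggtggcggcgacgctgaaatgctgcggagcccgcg
Spry2 (chr14:105896820-105897069, - strand): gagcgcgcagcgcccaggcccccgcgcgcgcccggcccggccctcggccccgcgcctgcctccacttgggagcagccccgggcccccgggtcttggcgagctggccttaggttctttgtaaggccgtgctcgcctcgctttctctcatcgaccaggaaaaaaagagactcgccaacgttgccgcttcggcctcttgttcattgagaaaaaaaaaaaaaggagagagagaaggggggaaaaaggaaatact
Etv5 (chr16:22439571-22439820, - strand): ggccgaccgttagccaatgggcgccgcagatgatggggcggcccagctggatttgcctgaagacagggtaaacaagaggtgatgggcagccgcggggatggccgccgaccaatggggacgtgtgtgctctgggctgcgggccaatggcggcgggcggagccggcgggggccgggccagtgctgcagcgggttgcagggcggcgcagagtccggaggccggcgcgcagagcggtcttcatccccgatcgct
The Dusp6 window held 3 ETS cores and the Spred1 window 1, whereas Spry1, Spry2 and Etv5 had none in these letters. Of windows not printed, that of Spred2, a gene that fell, held 2, and those of Spred3 and the other Etv5 start site held none. No window was found for the feedback genes Etv4, Spry3 and Spry4, so they were not searched. Of all 32851 windows of this length, 25.2% held at least 1 ETS core and 2.12% held 3 or more. The printed windows had 56.4 to 71.2% G and C bases, beside a median of 52.4% over all windows. The shares were not matched for this. Dusp6 had the only window with 3 or more among the 35 windows of the family. Over the family, 10 of 35 windows (28.6%) held the core, which is close to the share of all windows. AP-1 sites lay in 6.75% of all windows and, in the family, at Fgf12 and Fgf13. The CArG box, the site of serum response factor, lay in 1.47% of all windows and in none of the family. These matches are letters in a window and were not tested for binding.

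Ligands, receptors and feedback genes of FGF signalling fell in Flk1-positive cells against the WT embryo more often than they rose, and Dusp6 was the clearest exception. Of the 33 family members that passed the filter on low values, 2 rose (Dusp6 and Fgf1), 18 fell and 13 had no call. Over all 14946 genes tested the same way, 12.5% rose and 18.1% fell. The median difference was -0.93 log2 for the members that passed, beside -0.09 over all genes. A gene that passes the filter only through the group where it is high has to differ, so these counts describe the members and do not test them. Among the 18 that fell, 13 had a fitted fall of at least 2-fold on the scale used, 5 were below the background level in Flk1-positive cells alone, and Fgf5 was below it in every group. Background here is a signal of 57.4, the 95th percentile over 80 probe sets of olfactory and vomeronasal receptors. Where the dimmer mean lies under it, the fold is a lower bound, "at least" the step from that level to the brighter mean on the log2(signal + 21.61) scale. A fitted log2 difference printed beside such a bound is the model's value and is not measured on the dimmer side. Among the 13, the bound was only 1.56-fold for Fgf18 and 1.17-fold for Spry3, and Fgf5 has none. In such bulk samples, fewer cells of a type and less RNA per cell cannot be told apart. Fewer falls were called with any 1 array left out. Such a fit has 1 array in that group and fewer degrees of freedom. A call can thus be lost through lower precision alone, here and wherever a call is given below as lost. All called members above background kept their direction in these fits. The calls of Fgf8, Fgf17, Fgf15, Fgfr2, Spred1, Dusp6 and Etv4 were kept when any of the 6 arrays was left out.

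**Figure D1:**
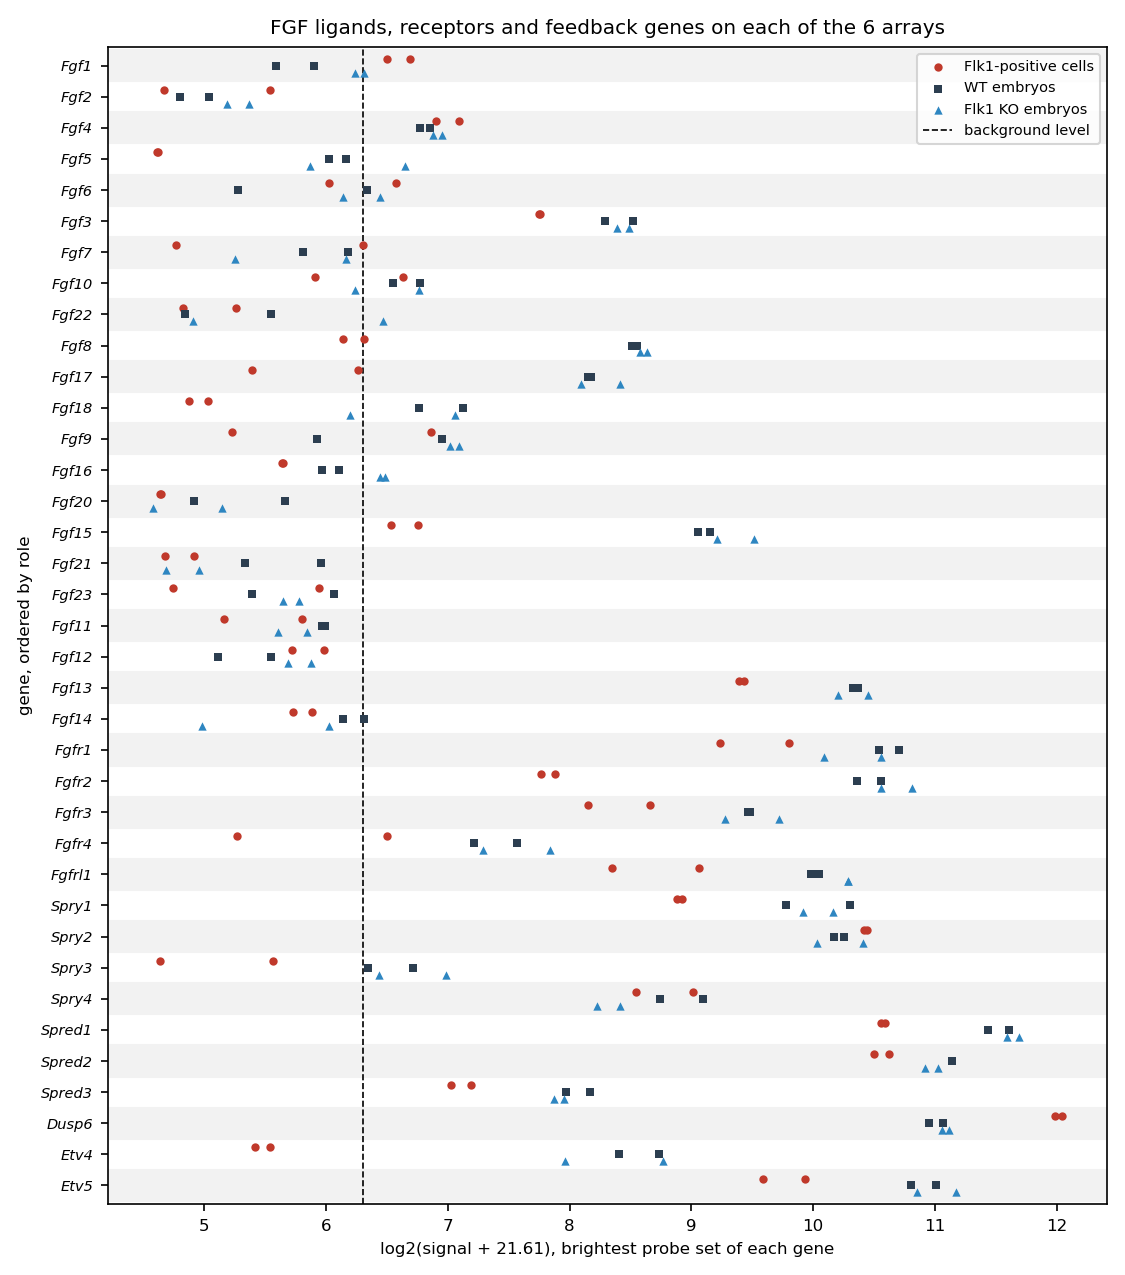
Level of each of the 37 genes on each array (x axis, log2(signal + 21.61) of the brightest probe set; 1 point per array, genes ordered by role). The dashed line is the background level of 6.30; Flk1-positive arrays lie left of the embryo arrays for Fgf8, Fgf15, Fgf17, Fgfr2 and Etv4 and right of them for Dusp6.

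The FGF8 subfamily, ligands of the tail bud and the brain's signalling centres, fell as a whole. Fgf8, which patterns the midbrain and supports the growing tail end, read 57.6 and 49.0 in the Flk1-positive cells, 354 and 343 in WT, and 361 and 375 in Flk1 KO. Both Flk1-positive arrays were at background and far below the other 4, a fall of at least 4.69-fold against WT (-2.31 ± 0.13 log2, SE, adjusted p = 0.000481). Fgf17, a close relative, read 55.1 and 20.4 in the Flk1-positive cells, 262 and 267 in WT, and 320 and 251 in KO. It was at least 3.62-fold lower than in WT (adjusted p = 0.00477), with no overlap between the arrays. Fgf18, the other relative, read 7.67 and 11.1 in the Flk1-positive cells, 118 and 86.8 in WT, and 51.8 and 112 in KO. Its fall was at least 1.56-fold (-1.99 ± 0.31 log2, adjusted p = 0.00848), and it missed the threshold without WT replicate 1 (adjusted p = 0.055).

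Fgf15, the mouse counterpart of human FGF19, acts as a gut hormone in adults and is made in the neural tube of the embryo. It read 71.0 and 86.1 in the Flk1-positive cells, 549 and 510 in WT, and 710 and 569 in KO. Its Flk1-positive arrays stayed above background, so the 5.51-fold fall against WT (-2.46 ± 0.17 log2, adjusted p = 0.000648) is measured on both sides. In the RefSeq gene table, Fgf15 follows Fgf4 and Fgf3, its neighbours on the chromosome. Fgf3, a ligand of the hindbrain and inner ear, read 195 and 193 in the Flk1-positive cells, 346 and 292 in WT, and 314 and 337 in KO. It fell by 0.66 ± 0.14 log2 (adjusted p = 0.0236), a smaller step than that of Fgf15, with the Flk1-positive arrays below all others. The call was lost without either Flk1-positive or either WT array (adjusted p = 0.0584 to 0.123).

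Fgf4, a ligand of the primitive streak and of the embryo before implantation, read 98.3 and 115 in the Flk1-positive cells, 94.0 and 87.4 in WT, and 95.8 and 102 in KO. Its brightest probe set had no call (0.19 ± 0.14 log2, adjusted p = 0.359). The gene's dimmer probe sets read otherwise, and 2 of the 3 were called lower: on 1 of them, 1.72 and 1.71 in Flk1-positive cells stood against 57.5 and 62.8 in WT (adjusted p = 0.00242), levels at or below the background in every group but WT.

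Fgf13 belongs to the FGF homologous factors, which stay inside the cell and bind sodium channels rather than receptors. It read 668 and 649 in the Flk1-positive cells, 1298 and 1260 in WT, and 1155 and 1375 in KO, a fall of 0.93 ± 0.14 log2 against WT (adjusted p = 0.00765, and 0.0537 without WT replicate 1). The other members of that group, Fgf11, Fgf12 and Fgf14, were below background in all 3 groups.

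Fgf1, a ligand that can bind every FGF receptor, was the only ligand that rose. It read 69.0 and 81.6 in the Flk1-positive cells, 26.6 and 38.2 in WT, and 57.9 and 53.7 in KO. Only the Flk1-positive mean was above background, which gives a rise of at least 1.22-fold (0.85 ± 0.16 log2, adjusted p = 0.0167). The call was lost without WT replicate 1 or either Flk1-positive array (adjusted p = 0.0501 to 0.0878).

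For 3 ligands near the background no call was made. Fgf9, a ligand of mesoderm and gonad, read 94.6 and 15.9 in the Flk1-positive cells, 39.1 and 102 in WT, and 108 and 115 in KO (-0.39 ± 0.59 log2 against WT, adjusted p = 0.669). Its Flk1-positive arrays differed from each other more than the groups did. Fgf10, a ligand of the limb, lung and anterior heart field, read 38.5 and 77.4, then 87.7 and 72.0, then 86.9 and 53.7 in the same order of groups, all overlapping (adjusted p = 0.394). Fgf16, a ligand of the Fgf9 group, read 28.4 and 28.3 in the Flk1-positive cells, 40.9 and 47.1 in WT, and 67.9 and 65.4 in KO. The Flk1-positive arrays were the lowest and the KO arrays the highest, but the difference from WT of -0.39 ± 0.13 log2 missed the threshold (adjusted p = 0.0748).

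A further 11 Fgf genes were below background in all groups: Fgf2, Fgf5, Fgf6, Fgf7, Fgf11, Fgf12, Fgf14, Fgf20, Fgf21, Fgf22 and Fgf23, with signals from 2.29 to 78.9 on single arrays. Among these, 4 (Fgf2, Fgf20, Fgf21 and Fgf22) did not pass the filter and were not tested. Fgf2, known as a growth factor of endothelial cells, read 25 and 3.80 in the Flk1-positive cells, 11.2 and 6.27 in WT, and 14.8 and 19.6 in KO. Fgf5 was called lower in Flk1-positive cells (adjusted p = 0.0139), at 2.96 and 2.86 against 43.4 and 50 in WT, and is given no fold because every group mean was under the background.

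Most marker lists of other embryonic tissues were low in the Flk1-positive cells as well, and that of neural crest was mixed. Those of the tail bud and primitive streak fell in 9 of 9, with summed signals of 899 and 920 against 8436 to 9156 in WT and 6485 to 8162 in KO, and 3 of the 9 were at or below background in Flk1-positive cells. Forebrain and midbrain-hindbrain markers fell in 9 of 9, from 9187 and 9509 in WT to 411 and 567 in Flk1-positive cells, where 6 of 9 were at or below background. Pharyngeal and gut endoderm markers fell in 7 of 8 tested, and Sox17, also an endothelial gene, rose. Somite markers fell in 7 of 10 (6615 and 6641 to 633 and 705) and heart markers in 6 of 8 (11415 and 11417 to 2077 and 2239). Of neural crest markers 4 of 7 fell and 2 rose, and 5 of the 7 were at or below background in Flk1-positive cells. Their summed signal was higher, at 8456 and 8755 against 2976 and 3078 in WT. Ets1, also on an ERK list, gave 6886 and 7230 of that sum. The part of these tissues in the ligand differences was not tested.

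The receptors were lower in Flk1-positive cells, by unequal amounts. Fgfr2, the receptor of many epithelia and of the neural tube, read 196 and 214 in the Flk1-positive cells, 1290 and 1488 in WT, and 1774 and 1482 in KO. It fell 6.21-fold against WT (-2.63 ± 0.16 log2, adjusted p = 0.000541), the largest fall of the 5, and its arrays stayed above background. Fgfr1, the main receptor of mesoderm, read 869 and 580 in the Flk1-positive cells, 1647 and 1469 in WT, and 1066 and 1484 in KO. It was 2.15-fold lower than in WT (-1.11 ± 0.26 log2, adjusted p = 0.0295) with a signal well above background in every group. That call was lost without Flk1-positive replicate 2 or either WT array (adjusted p = 0.0997 to 0.133).

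Fgfr3, a receptor best known for limiting the growth of cartilage, read 382 and 262 in the Flk1-positive cells, 692 and 683 in WT, and 598 and 819 in KO. Its fall was 1.07 ± 0.24 log2 (adjusted p = 0.0256). With 1 array left out the difference ran from -1.32 to -0.81 log2. The call was lost without Flk1-positive replicate 2 or either WT array. Fgfr4 read 68.7 and 17.0 in the Flk1-positive cells, 168 and 127 in WT, and 207 and 135 in KO. Both Flk1-positive arrays were lower than all others, but they differed from each other and there was no call (-1.51 ± 0.44 log2, with the Flk1-positive mean below background, adjusted p = 0.0563; 0.0164 without Flk1-positive replicate 1). Fgfrl1 encodes a receptor that binds FGF without a kinase domain. It read 514 and 304 in the Flk1-positive cells, 990 and 1039 in WT, and 1226 and 1225 in KO, a fall of 1.31 ± 0.25 log2 (adjusted p = 0.0158). Without WT replicate 1 or 2 its adjusted p was 0.0746 and 0.0825.

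The 10 feedback genes split. Dusp6 rose, 7 fell and 2, Spry2 and Spry4, had no call. Dusp6, the phosphatase that acts on ERK in the cytoplasm, read 4036 and 4188 in the Flk1-positive cells, 2121 and 1962 in WT, and 2107 and 2201 in KO. Both Flk1-positive arrays lay far above the 4 embryo arrays, which overlapped with each other. The rise against WT was 1.0 ± 0.13 log2 (95% interval 0.69 to 1.32, adjusted p = 0.00415). Only 1 probe set of Dusp6 was tested, so this rise has no second probe set beside it.

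The ETS factors went the other way. Etv4 read 21.0 and 25 in the Flk1-positive cells, 404 and 318 in WT, and 228 and 413 in KO. It was below background in Flk1-positive cells and at least 4.81-fold lower than in WT (fitted -3.09 ± 0.29 log2, adjusted p = 0.00163). Etv5 read 747 and 955 in the Flk1-positive cells, 2038 and 1769 in WT, and 1825 and 2284 in KO. It was 2.22-fold lower (-1.15 ± 0.19 log2, adjusted p = 0.0112), still far above background, with an adjusted p of 0.0537 without Flk1-positive replicate 1 and 0.0699 without WT replicate 1.

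Sprouty genes, intracellular inhibitors of receptor tyrosine kinase signalling, did not behave alike. Spry1 read 449 and 463 in the Flk1-positive cells, 1243 and 856 in WT, and 1124 and 946 in KO, a fall of 1.14 ± 0.21 log2 (adjusted p = 0.0149). Without WT replicate 1 or either Flk1-positive array its adjusted p was 0.0579 to 0.0654. Spry2 read 1366 and 1342 in the Flk1-positive cells, 1197 and 1134 in WT, and 1023 and 1335 in KO. Its difference from WT was 0.21 ± 0.17 log2 (adjusted p = 0.399), with a 95% interval from -0.20 to 0.63, which leaves out a fall of the size seen for Spry1. Whether the difference of Spry2 itself differs from that of Spry1 was not tested.

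Spry4 read 352 and 494 in the Flk1-positive cells, 406 and 525 in WT, and 277 and 320 in KO. Its Flk1-positive and WT arrays overlapped (-0.14 ± 0.22 log2, adjusted p = 0.685). The dimmest of its 4 tested probe sets was called higher, at 108 and 111 against 49.4 and 39.4 in WT (1.0 ± 0.18 log2, adjusted p = 0.0136), while the others had no call. Spry3 read 25.6 and 3.26 in the Flk1-positive cells, 83.3 and 59.5 in WT, and 64.7 and 105 in KO. It lay at the background, its fall of at least 1.17-fold had an adjusted p of 0.0392, and it lost the call when any array other than Flk1-positive replicate 1 was left out (adjusted p = 0.0609 to 0.166).

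Spred proteins, relatives of Sprouty that hold back RAS and RAF, were lower in Flk1-positive cells at all 3 genes. Spred1 read 1515 and 1481 in the Flk1-positive cells, 2745 and 3106 in WT, and 3276 and 3069 in KO. It fell by 0.95 ± 0.13 log2 against WT (adjusted p = 0.00596), and its 5 other tested probe sets were called lower too. Spred3 read 124 and 109 in the Flk1-positive cells, 266 and 229 in WT, and 213 and 226 in KO (-0.96 ± 0.14 log2, adjusted p = 0.00717, and 0.0512 without WT replicate 1). For Spred2 the signals were 1427 and 1552 in the Flk1-positive cells, 2234 and 2235 in WT, and 2067 and 1918 in KO. That fall was 0.58 ± 0.13 log2 (adjusted p = 0.0256). With 1 array left out the difference ran from -0.64 to -0.52 log2. The call was lost without any 1 of the Flk1-positive and WT arrays. No other Spred2 probe set was called, and 3 of those 4 had a difference above 0.

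**Figure D2:**
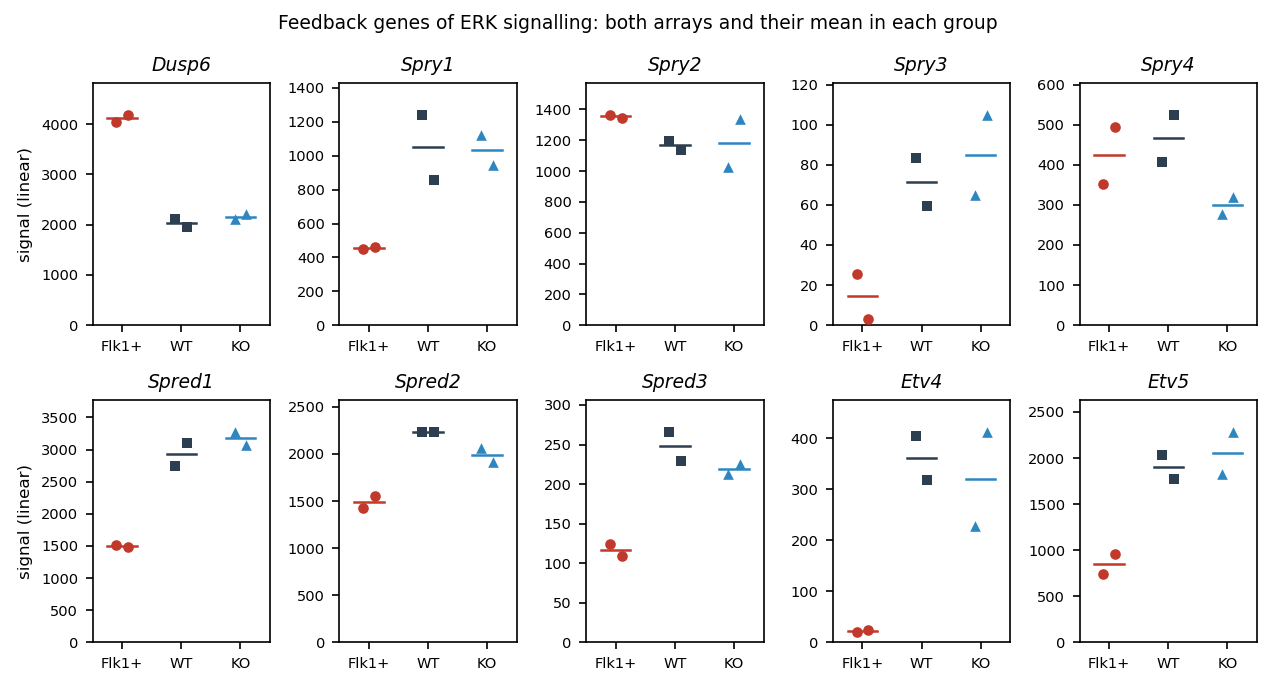
Linear signal of the 10 feedback genes (y axis from 0, a scale of its own in each panel) in Flk1-positive cells, WT and Flk1 KO embryos; points are arrays and lines the mean of 2. Dusp6 is higher in Flk1-positive cells (4036 and 4188 against 1962 to 2201), Etv4 is at 21.0 and 25, and Spry2 at 1366 and 1342 against 1023 to 1335.

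Immediate early genes, which ERK and other stimuli induce within minutes, also stood higher in the Flk1-positive cells. Of 12 tested, 9 rose and 1 fell, with a median difference of 2.41 log2 and summed signals of 15438 and 16228 against 3965 and 3975 in WT and 3896 and 3986 in KO. Their part in the rise of Dusp6 was not tested.

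Other genes of the pathway were read from 4 lists of 94 genes, of which 84 were matched and 81 tested. In Flk1-positive cells against WT, 16 rose and 29 fell, where 12.5% of all genes rose and 18.1% fell. These shares also stand beside the counts of each list below. The lists differed in direction. Among co-receptors and secreted modifiers of FGF, 1 of 13 rose and 8 fell, with a median of -0.86 log2. The rise was Flrt2, a membrane protein of the family that binds FGF receptors, at 1359 and 1450 against 436 and 446 in WT (1.62 ± 0.12 log2, adjusted p = 0.000853). Fgfbp3, a carrier that frees FGF from the matrix, fell by 2.94 ± 0.30 log2 (95 and 44.6 against 691 and 616, adjusted p = 0.00222). Sulf1, an enzyme that trims sulphate from heparan chains, fell by 2.57 ± 0.17 log2 (185 and 167 against 1134 and 1178, adjusted p = 0.000612).

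Heparan sulphate proteoglycans and the enzymes that build their chains fell in 17 of 23 and rose in 1, with a median of -1.01 log2. Hspg2, the basement membrane proteoglycan perlecan, was the one that rose (1726 and 1535 against 1070 and 929 in WT, 0.70 ± 0.15 log2, adjusted p = 0.0248). The cell surface glypicans Gpc1 and Gpc2 had the largest falls. Gpc1 read 251 and 214 against 1008 and 1000 in WT (-2.02 ± 0.13 log2, adjusted p = 0.000621), and Gpc2 read 40.3 and 84 against 235 and 242 (-1.68 ± 0.26 log2, adjusted p = 0.00867).

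Receptor adaptors and the RAS-ERK cascade had 5 rises and no fall among 23 tested, with a median of -0.02 log2. At an unadjusted p under 0.05 in limma, 11 of the 23 differed in either direction, a share near the 43.5% of all genes. Gab2, a docking protein downstream of receptor kinases, read 686 and 668 in Flk1-positive cells and 165 on both WT arrays (1.90 ± 0.12 log2, adjusted p = 0.000598). Ksr1, a scaffold of RAF, MEK and ERK, read 750 and 732 against 231 and 270 (1.49 ± 0.22 log2, adjusted p = 0.0072).

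Other ERK phosphatases and ERK-responsive genes rose in 9 of 22 and fell in 4, with a median of 0.50 log2. Elk3, an ETS factor that ERK phosphorylates, rose by 3.12 ± 0.19 log2, from 628 and 623 in WT to 5591 and 5651 (adjusted p = 0.000547). Dusp2, a phosphatase of ERK in the nucleus, rose by 2.92 ± 0.18 log2, from 107 and 137 to 1012 and 1107 (adjusted p = 0.000546). Within the same list Dusp9, a cytoplasmic ERK phosphatase like Dusp6, fell by 1.41 ± 0.13 log2 (510 and 563 against 1498 and 1425, adjusted p = 0.00151). Dusp14 fell by 1.22 ± 0.20 log2 (73.4 and 59.3 against 164 and 202, adjusted p = 0.0107). The rise of Dusp6 stood beside a higher Dusp1 and Dusp2 and a lower Dusp9 and Dusp14. Dusp1 read 4833 and 4484 in Flk1-positive cells against 673 and 639 in WT (2.79 ± 0.14 log2, adjusted p = 0.000433). Dusp4 had no call (-0.52 ± 0.18 log2, adjusted p = 0.0927).

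**Figure D3:**
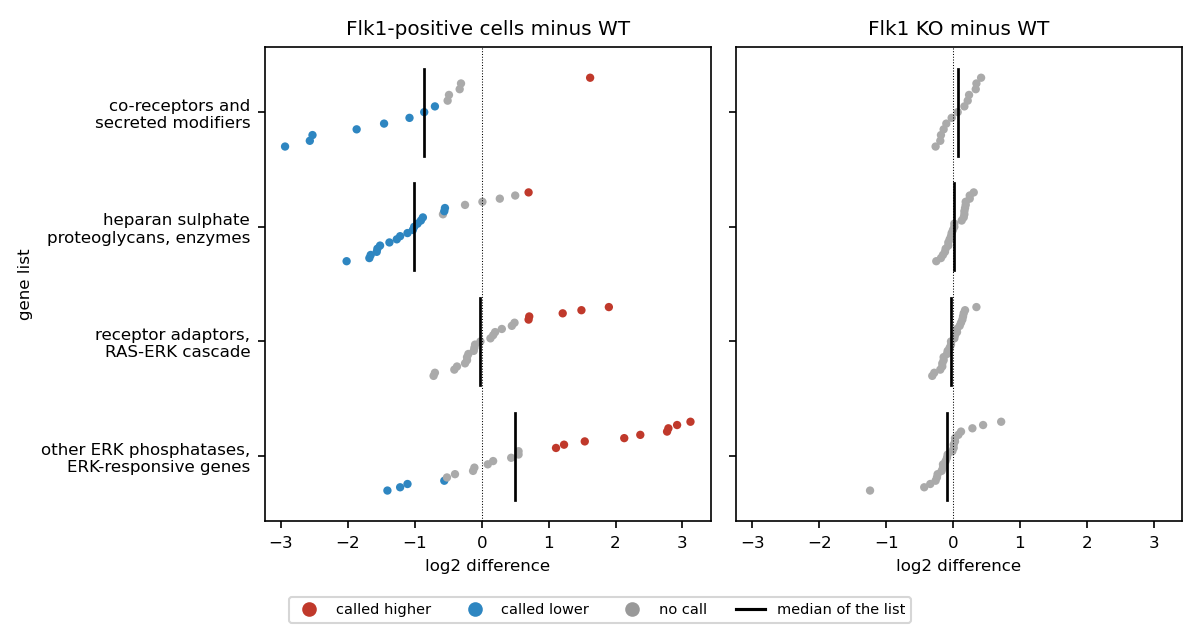
Log2 difference (x axis) of each tested gene of the 4 pathway lists, Flk1-positive cells minus WT on the left and Flk1 KO minus WT on the right; black bars are list medians. On the left the medians are -0.86, -1.01, -0.02 and 0.50 from top to bottom, and on the right no gene was called.

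Loss of Flk1 in the whole embryo left no family member past the test. In Flk1 KO against WT, 0 of the 33 members tested were called in limma, where 0.154% of all genes were called lower and 0 higher. Few differences passed here: Kdr, at -3.10 ± 0.25 log2, had an adjusted p of 0.0459. All 15 endothelial markers were lower on both KO arrays (median -1.71 log2), yet 7 had no call. Falls of more than 2-fold can thus go uncalled, as that of Elk3 below did. At an unadjusted p under 0.05 there were 3 of the 33 members, Fgf1, Fgf16 and Spry4, beside 6.29% of all genes. The members' median was 0.07 log2, beside 0.0016 over all genes. Among the 26 members above background in a group, the differences ran from -0.60 to 0.62 log2, and for 21 of the 26 the 95% interval lay within 1 log2 of 0. The arrays of the groups did not overlap for 8 members higher in KO and 5 lower, beside 19.1% and 18.2% of all genes.

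The largest of these differences were uncalled. Spry4, at 277 and 320 in KO against 406 and 525 in WT, differed by -0.60 ± 0.22 log2 (adjusted p = 0.552). Fgf16, at 67.9 and 65.4 against 40.9 and 47.1, differed by 0.43 ± 0.13 log2 (adjusted p = 0.457), with only the KO mean above background. Fgf1 differed by 0.53 ± 0.16 log2 (adjusted p = 0.486) with both means below background. Its other probe set went the opposite way (-0.79 log2, adjusted p = 0.54), at 14.2 and 3.44 in KO against 35.8 and 24.9 in WT, also below background. Fgf9 had the widest difference, 0.62 ± 0.59 log2 (95% interval -0.87 to 2.11, adjusted p = 0.846). A change of 2-fold lies within the intervals of Spry4 and Fgf9.

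The ligands and receptors that fell most in Flk1-positive cells had no call between the embryo groups. The difference of KO from WT was 0.07 ± 0.13 log2 for Fgf8 (95% interval -0.25 to 0.40), 0.26 ± 0.17 for Fgf15 (-0.16 to 0.67) and 0.22 ± 0.16 for Fgfr2 (-0.17 to 0.62). For the feedback genes it was 0.08 ± 0.13 log2 at Dusp6 (-0.24 to 0.39), -0.21 ± 0.29 at Etv4 (-0.93 to 0.52) and 0.10 ± 0.19 at Etv5 (-0.38 to 0.59). A change of 2-fold lies outside each of these intervals. It also lies outside that of Fgf17 (0.09 ± 0.30, from -0.67 to 0.86) but within that of Fgf18 (-0.31 ± 0.31, from -1.09 to 0.46). These arrays mix all cells of the embryo proper and give no value for one cell type alone. No tested gene of the 4 pathway lists was called in KO against WT (0 of 81; 4 of 81 at an unadjusted p under 0.05, where 6.29% of all genes lay). Elk3 had the largest difference, at 209 and 303 in KO against 628 and 623 in WT (-1.24 ± 0.19 log2, adjusted p = 0.178), followed in its list by Dusp5 (755 and 671 against 439 and 411, 0.72 ± 0.14, adjusted p = 0.271). In the other lists the widest were Flrt2 (0.42 ± 0.12, adjusted p = 0.454) and Klb (0.35 ± 0.19, adjusted p = 0.719), Sdc3 (0.31 ± 0.39, adjusted p = 0.884) and Hspg2 (-0.25 ± 0.15, adjusted p = 0.748), and Gab2 (0.35 ± 0.12, adjusted p = 0.534) and Nras (-0.31 ± 0.15, adjusted p = 0.687).

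**Figure D4:**
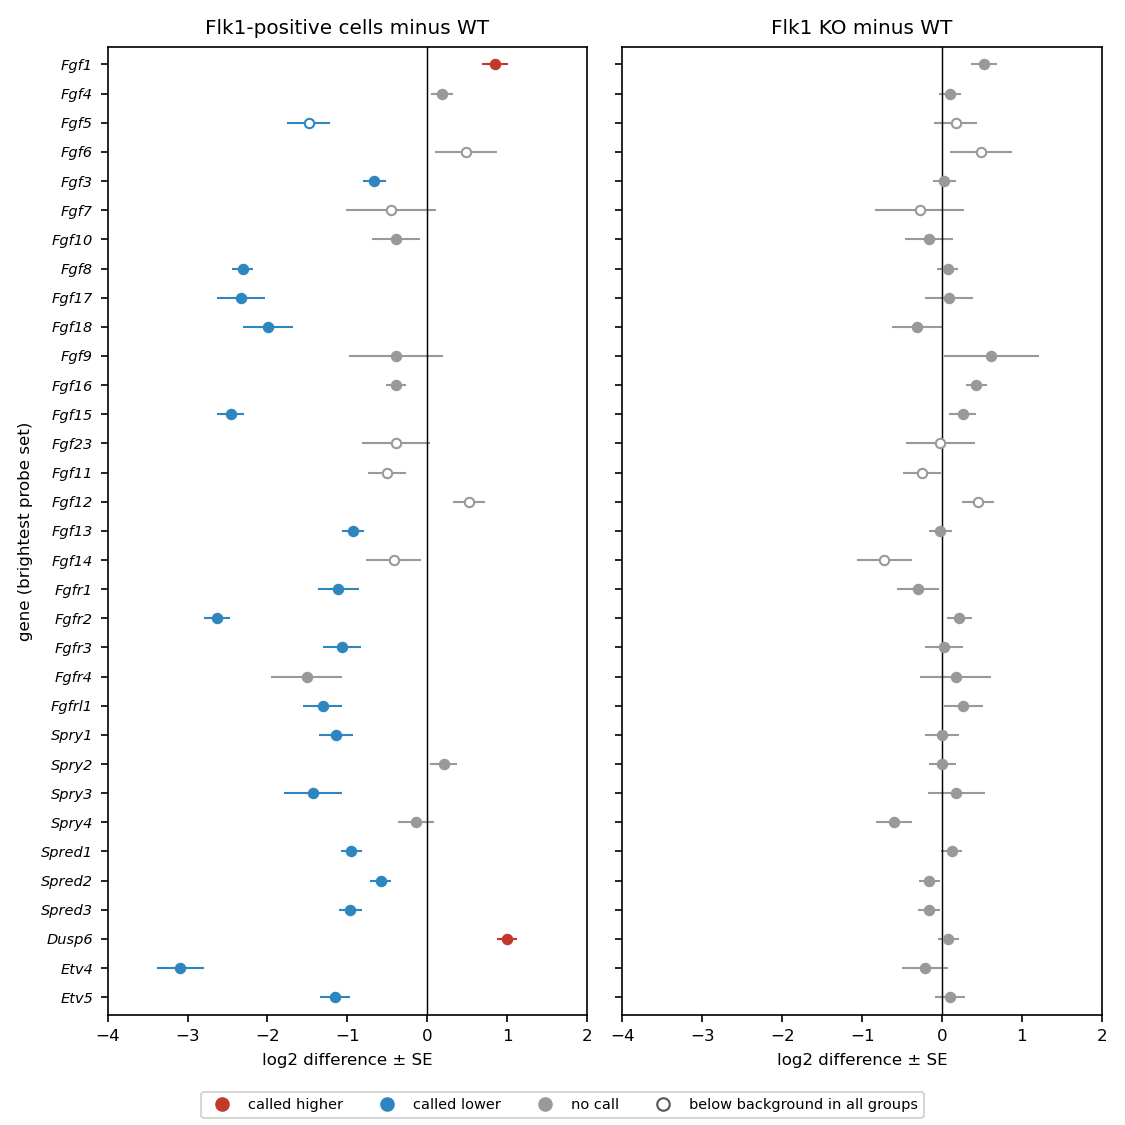
Log2 difference ± SE (x axis) of the 33 members that passed the filter, Flk1-positive cells minus WT on the left and Flk1 KO minus WT on the right; colour marks the call and open circles are genes below background in all groups. On the left 18 are called lower and 2 higher, and on the right none is called.

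Against the Flk1 KO embryos, Flk1-positive cells gave 1 rise and 18 falls among the 33 members. Of all genes, 13.2% rose and 19.6% fell in this comparison. The members' median was -0.82 log2 beside -0.08 over all genes. This comparison uses the same Flk1-positive arrays as the one with WT, so its calls are no separate evidence of direction. Dusp6 was 0.93 ± 0.13 log2 higher (adjusted p = 0.00492). Without KO replicate 2 there were 2 rises, the other being Fgf14, which is below background in all groups. Fgfr2 was 7.25-fold lower (-2.86 ± 0.16 log2, adjusted p = 0.000324), and Fgf15 6.58-fold lower (-2.72 ± 0.17, adjusted p = 0.000404). Fgf8 was at least 4.93-fold lower (adjusted p = 0.000317), Fgf17 at least 3.86-fold (adjusted p = 0.00382) and Etv4 at least 4.17-fold (adjusted p = 0.00183).

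A few members had a call in 1 of the comparisons with Flk1-positive cells and none in the other. Fgf16 was at least 1.12-fold lower than in KO (-0.82 ± 0.13 log2, adjusted p = 0.00734). Fgfr4 was at least 2.40-fold lower than in KO (-1.68 ± 0.44, adjusted p = 0.0383), a call that was lost without any array but Flk1-positive replicate 1 (adjusted p = 0.0681 to 0.16). Fgfr1 (-0.81 ± 0.26 log2, adjusted p = 0.0677), Spred2 (-0.42 ± 0.13, adjusted p = 0.0622) and Fgf1 (0.32 ± 0.16, adjusted p = 0.198) had no call against KO. Other probe sets of these 3 genes were called against KO: 1 of Fgfr1 was lower (-1.15 log2, adjusted p = 0.00478), 1 of Fgf1 higher (1.71, adjusted p = 0.0089), and 1 of Spred2 higher, opposite in sign to the brightest (1.10, adjusted p = 0.0446). Etv5 (-1.25 ± 0.19, adjusted p = 0.00769), Fgfrl1 (-1.58 ± 0.25, adjusted p = 0.00793) and Spred1 (-1.07 ± 0.13, adjusted p = 0.00372) fell, and these calls were kept when any array was left out. Fgf13 fell by 0.91 ± 0.14 log2 (adjusted p = 0.00748), also with any array left out. Fgf18 (-1.68 ± 0.31, adjusted p = 0.0133) lost its call without Flk1-positive replicate 1. With 1 array left out its difference ran from -2.11 to -1.25 log2. Spred3 (-0.81 ± 0.14, adjusted p = 0.0114) lost its call without Flk1-positive replicate 2, with differences from -0.88 to -0.73 log2. The call of Fgf3 (adjusted p = 0.0187) was lost without either Flk1-positive array or KO replicate 2 (0.0648 to 0.0844), and that of Fgfr3 (adjusted p = 0.0218) without Flk1-positive or KO replicate 2 (0.0824 and 0.0866). That of Spry1 (adjusted p = 0.0135) was lost without either Flk1-positive array or KO replicate 1 (0.0548 to 0.0661), and that of Spry3 (adjusted p = 0.0253) without Flk1-positive replicate 2 or either KO array (0.0573 to 0.116). Spry2 differed by 0.21 ± 0.17 log2 (adjusted p = 0.397) and Spry4 by 0.46 ± 0.22 (adjusted p = 0.179).

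In the pathway lists, 18 of 81 genes rose and 32 fell against KO, where 13.2% of all genes rose and 19.6% fell. Flrt2 was 1.2 ± 0.12 log2 higher, and Fgfbp3 (-2.68 ± 0.30) and Ncam1 (-2.44 ± 0.13), an adhesion protein that binds FGF receptors, had the largest falls (adjusted p = 0.0019, 0.00271 and 0.000319). Ncam1 read 81.3 and 87.1 in Flk1-positive cells and 555 and 546 in KO. Among proteoglycans Hspg2 rose by 0.95 ± 0.15 log2 (adjusted p = 0.00848), and Gpc1 and Sdc4, a syndecan, had the largest falls (-2.18 ± 0.13, adjusted p = 0.000408, and -1.91 ± 0.20, adjusted p = 0.00207). Ksr1 and Gab2 led the adaptors (1.77 ± 0.22, adjusted p = 0.0037, and 1.55 ± 0.12, adjusted p = 0.000887). In that list Frs3, an adaptor bound to FGF receptors, and Sos1, an activator of RAS, were lower (-0.84 ± 0.21, adjusted p = 0.0318, and -0.76 ± 0.19, adjusted p = 0.0362). In the list of other ERK phosphatases and ERK-responsive genes, Elk3 (4.37 ± 0.19, adjusted p = 0.000225) and Dusp2 (3.26 ± 0.18, adjusted p = 0.000312) rose most. Dusp9 (-1.32 ± 0.13, adjusted p = 0.00165) and Spsb1 (-1.12 ± 0.22, adjusted p = 0.0153) fell most there.

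Probe sets of a gene can cover different transcript ends, and 17 members had more than 1 tested probe set. In Flk1-positive cells against WT, the probe sets of 12 genes all had the same sign, those of 5 differed in sign (Fgf3, Fgf4, Spry2, Spry4 and Spred2), and no gene had calls in both directions. Over the 66 tested probe sets of the family, 3 were called higher and 37 lower, beside 11.6% and 14.4% of all 33778 probe sets. Both probe sets of Fgfr2 fell by similar amounts (-2.63 and -2.85 log2), as did those of Fgf17 (-2.33 and -2.13). The second probe set of Fgfr1 fell by 1.37 ± 0.15 log2 (adjusted p = 0.00298) and a dimmer one had no call. All 3 other probe sets of Fgfr4 were called lower (-1.30, -1.92 and -1.49 log2), unlike the brightest, and the last of these was below background in all groups. The dimmer probe set of Fgf9 read 3.84 and 2.78 in Flk1-positive cells against 114 and 74.9 in WT, at least 1.45-fold lower (adjusted p = 0.00409), where the brighter one had no call. The second Etv4 probe set fell by 0.90 ± 0.21 log2, at least 1.84-fold (adjusted p = 0.0283), from 144 and 107 in WT to 58.9 and 53.8. Against KO it had no call (-0.61 log2, adjusted p = 0.078). The other Fgf13 probe set, above background in every group, had no call against WT (-0.45, adjusted p = 0.125) or KO (-0.54, adjusted p = 0.0756). Of the other Etv5 probe sets, 1 had no call against WT (-0.59, adjusted p = 0.0521).

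**Figure D5:**
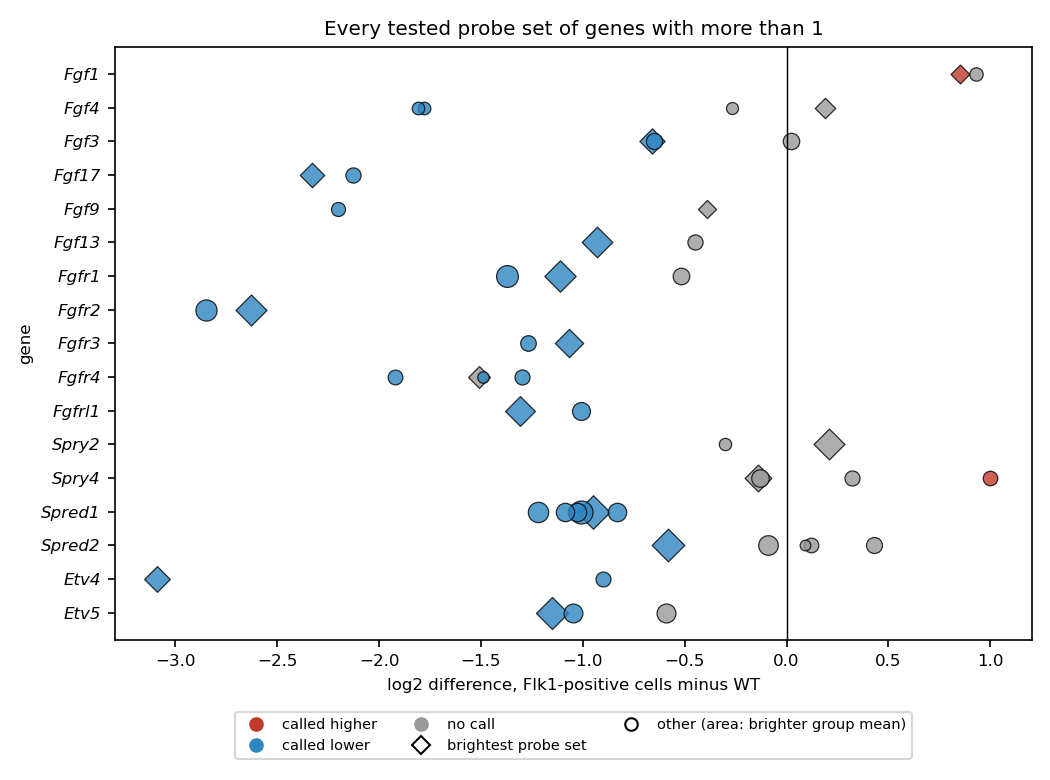
Log2 difference of Flk1-positive cells minus WT (x axis) for each tested probe set of the 17 genes with more than 1; diamonds are the brightest probe set, circles the others, with area by the brighter group mean and colour by the call. The 6 Spred1 probe sets lie together between -1.22 and -0.83, while the 5 Spred2 and 4 Spry4 probe sets lie on both sides of 0.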

How the data were processed

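The deposited table holds 1 linear signal for each of 45101 probe sets on 6 arrays. The authors used an RNeasy Micro kit and biotin labelling for Affymetrix arrays, per the labels' protocols, and GeneSpring, per the series' design text. No source used here names the program that made and scaled the signals. From the values, each array has a trimmed mean of 500 (2% left out at each end) and a floor of 1. The deposited scale was kept. The number of arrays, 2 in each group, limits the precision.

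Genes were named from the platform annotation: 34958 probe sets had 1 symbol and were used, 932 had several. Signals were taken as log2(signal + 21.61), the pseudocount being the 25th percentile of all values. After removal of 64 control probe sets, 33778 had a mean of at least the 25th percentile and were tested. The model had no term but the group and took in all 6 arrays; limma 3.58.1 under R 4.3.3 fitted it (lmFit, then eBayes, with 3 residual and 2.49 prior degrees of freedom, two-sided). P-values were adjusted by Benjamini-Hochberg over all probe sets tested, with a threshold of 0.05, and a call means an adjusted p under it. The code was tested on simulated data. Tables and plots used pandas 2.3.3 and matplotlib 3.10.9 in Python 3.11.15.

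The members, the gene lists and the tests were chosen with earlier results of these data known. Every member with a group mean above background is given with its values, and of each pathway list the 2 called genes with the largest rise and the 2 with the largest fall, or the 2 largest differences where none passed. Dusp1 and Dusp4 were added beside Dusp6. Deviations of arrays with the same label number correlated at 0.008013 to 0.02901 between groups, over all tested probe sets. That shows no broad shift shared by such arrays. It cannot tell whether they share a litter or batch, because a shared effect on few genes would not show. The alternatives tried were other pseudocounts and filters, median centring or quantile normalization, a robust prior with an intensity trend, a replicate block, fits of only 2 groups, medians over the probe sets of each gene, a limit of 2-fold and leaving out each array. Promoter windows come from RefSeq (GRCm38.p6).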

Additional observations from a re-analysis of the deposited data

How the results depend on the processing

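Direction was kept by all called members above background under every alternative, except on another probe set or the median over probe sets: Fgf3 differed by 0.02 log2 on 1 other probe set, and Spred2 by 0.43 as the median over its probe sets and by 0.09, 0.43 and 0.12 on 3 of them (Flk1-positive cells against WT). In that comparison 2 members rose, or 1 with the 50th percentile filter, 1 at a limit of 2-fold and 1 to 2 with an array left out; 18 fell, or 6 to 17 with an array left out. Against Flk1 KO, 1 rose, or 2 as the median over probe sets (Fgf1 joining), 0 at a limit of 2-fold and 1 to 2 with an array left out. No pathway gene fell in Flk1 KO against WT, but 1 did with the median as pseudocount and 1 with the intensity trend and robust prior. The cause was not tested. A replicate block gave 2 rises and 16 falls against WT: Fgfr1, Spry3 and Spred2 lost their calls (adjusted p = 0.0529, 0.058 and 0.0504) and Fgfr4 gained one (0.0195). Of 19 called members above background, 7 kept the call against WT with any array left out, and 11 of 18 against Flk1 KO. With 2 arrays in each group, small differences and signals near background have little power. In Flk1 KO against WT, differences of more than 2-fold also went uncalled.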
